A study of Mus musculus with 36 samples.

Results

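The enzymes that make histamine and that compete for arginine were followed through 9 groups of mouse colon lesions and tumours. They are the 4 genes Hdc, Nos2, Arg1 and Arg2, of 988 genes on the targeted panel, and all 4 had counts in every group. The genes were picked by name after results of the colon tumours were known, in which Hdc, Nos2 and Arg2 were high in the sash mutant. The levels in those tumours, and every difference that uses the sash tumours, are therefore given as a description with no p-value.

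Colon tumours came from sash mice (n = 5), which carry the Kit "sash" mutation on a C57BL/6 background, and from wild-type C57BL/6 mice (n = 5), all aged 32 weeks. Both genotypes had received 6 intraperitoneal injections of azoxymethane (AOM, 10 mg/kg per week), a carcinogen that acts on the colon epithelium, and the tumours were taken 18 weeks after the last dose. Colon with preneoplastic lesions came from sash mice (n = 3) and wild-type mice (n = 3) aged 14 weeks, given AOM 3 times in 3 weeks and left for 3 more. Another wild-type set, also of 14 weeks, was given cromolyn, a mast cell stabiliser, together with AOM for 3 weeks (n = 3), cromolyn for 3 weeks after AOM (n = 3), or AOM only (n = 3). All of these 14-week groups, controls included, had AOM, and there was no colon without carcinogen. Tumours of MC-38, a single mouse colon carcinoma line, came from sash hosts (n = 5) and wild-type hosts (n = 4), both labelled with saline as treatment. No age is given for these hosts in the labels. The sash mutation is inherited by every cell of the mouse, so a sash group differs from wild type in more than its mast cells. Nothing in the labels ties each library to its own mouse, so p-values measure the spread between libraries alone, and part of that spread may be technical.

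Hdc encodes histidine decarboxylase, the enzyme that turns histidine into histamine. Mast cells store histamine in granules, and basophils and immature myeloid cells also express Hdc. Nos2 encodes inducible nitric oxide synthase, which makes nitric oxide and citrulline from arginine in macrophages, neutrophils and colon epithelium exposed to inflammatory cytokines. Arg1 and Arg2 encode the cytosolic and the mitochondrial arginase, which split the same arginine into ornithine and urea. Arg1 is a known product of macrophages exposed to type 2 cytokines and of myeloid cells in tumours, and arginine use by such cells limits T cell growth.

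Total counts per library were 449880 to 1264354 over the 25 AOM libraries and 480136 to 986415 over the 9 MC-38 libraries. Levels are in CPM, counts relative to the library total, after TMM scaling within each of these 2 tables, so levels may be set side by side within a table only. A panel of this kind reads 1 short stretch of each transcript with its own efficiency, so levels of different genes are not compared. Epcam, the defining epithelial marker, stood between 9591 and 34760 CPM in every AOM library, but had only 8 counts over all MC-38 tumours of sash hosts and 5 over those of wild-type hosts. The MC-38 libraries thus lacked the epithelial marker that the colon libraries carried. Cpa3, a carboxypeptidase stored in mast cell granules, had 21 counts in sash against 191 in wild-type colon tumours, 0 in sash against 31 in wild-type lesions, and 15 in sash against 1574 in wild-type hosts of MC-38. A sum of RNA over a piece of tissue cannot tell fewer cells of a type from less RNA per cell, and this holds for every value below.

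RefSeq (GRCm38.p6) promoter sequence was at hand for 1 of the 4 genes, Hdc, and it is shown as the start region of the gene that was nearly silent outside the colon tumours. The 250 bases before its start site lie at chr2:126618679-126618928 on the minus strand and are given 5′ to 3′ along the gene, with the bases of matched motifs in capitals.
Hdc: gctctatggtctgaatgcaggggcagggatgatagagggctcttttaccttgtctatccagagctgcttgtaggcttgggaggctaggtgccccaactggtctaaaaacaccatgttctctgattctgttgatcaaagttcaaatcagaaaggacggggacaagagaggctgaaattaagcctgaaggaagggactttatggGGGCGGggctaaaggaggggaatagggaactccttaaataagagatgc
The capitals mark a GC box, GGGCGG, whose first base lies at position -48 from the start site. On either strand, 32.7% of the 32851 promoters of the table hold this motif in the same window. The other motifs searched on both strands were the TATA box TATAAA (12.4% of promoters), the NF-kappaB consensus (7.25%), the C/EBP site TTGCGCAA (0.164%), the AP-1 site TGANTCA (6.75%) and the GAS element TTCNNNGAA (7.02%). None of these letters occurred in the Hdc window, and no match overlapped another.

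Hdc was high in the colon tumours and close to the limit of detection in every other group. It stood at 175, 109, 191, 306 and 146 CPM in sash tumours 1 to 5 (132 to 368 counts), against 52.6, 63.4, 93.4, 41.4 and 49.6 CPM in wild-type tumours 1 to 5 (40 to 89 counts). Every sash tumour lay above every wild-type tumour, with group levels of 185 ± 74.1 CPM in sash and 60.1 ± 20.2 CPM in wild type (SD, n = 5 each). The fitted log2 difference, sash minus wild type, was 1.60 (SE 0.33). Of the 4 members, 3 had at least 4 sash tumours above every wild-type tumour, and 2, Hdc and Arg2, did not overlap between the genotypes. Over the 797 genes tested in the tumours the groups did not overlap for 5.40%, and were higher in sash for 3.89%. The members were picked from this contrast, so nothing is read from these counts.

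The preneoplastic lesions held little Hdc in either genotype. Sash lesions 1 to 3 had 7.16, 16.7 and 5.89 CPM (4, 12 and 5 counts), and wild-type lesions 1 to 3 had 7.07, 10.6 and 10.4 CPM (4, 7 and 11 counts). The 2 genotypes overlapped. Hdc did not pass the filter on low counts here, so its ratio was taken from pooled counts and exact 95% intervals, which cover counting error only. That ratio, sash over wild type, was 1.05 (0.547 to 1.99).

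Tumour stage within wild type was compared in a fit whose scaling, filter and spread also drew on the sash libraries. Hdc rose in wild-type tumours relative to wild-type lesions, with a log2 difference of 2.62 (SE 0.46, adjusted p = 0.000647, edgeR's quasi-likelihood test with Benjamini-Hochberg adjustment over 848 genes), with 5 of 5 tumours above every lesion, as for 16.7% of those genes. In that comparison 3 of the 4 members passed the adjusted p threshold of 0.05, all 3 of them higher in tumours, where 37.0% of all genes tested passed and 19.5% passed as higher. Hdc was too low to be tested in the lesions alone. It entered this fit, and the wild-type fit below, through the tumours, where it was high. Nothing is therefore read from its adjusted p or from its place in these counts. With the wild-type tumours and lesions alone in the fit, an alternative chosen after seeing the data, the same 3 members passed: Hdc (2.68, adjusted p = 0.00647), Arg1 (6.45, adjusted p = 0.00192) and Arg2 (1.55, adjusted p = 0.0390), while 154 genes passed in all. Within sash mice the same difference of stage was 4.20 (SE 0.49), again with 5 of 5 tumours above every lesion, and 4.80 without sash lesion 2, which held 12 of the 21 counts. Over all genes 52.6% did not overlap between sash tumours and sash lesions (27.5% higher in tumours), and all 4 members were among them. Tumours and lesions differed in age and in the number of AOM doses as well, and these cannot be told apart from stage.

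Cromolyn groups had single counts of Hdc. With AOM plus cromolyn the libraries held 1, 3 and 3 counts (2.20, 5.74 and 7.10 CPM), with cromolyn after AOM 7, 3 and 4 counts (14.3, 5.71 and 7.62 CPM), and with AOM only 1, 1 and 8 counts (2.34, 1.88 and 16.2 CPM). AOM-only library 3 therefore carried 8 of the 10 counts of its group. By pooled counts the ratio to AOM only was 0.749 (0.242 to 2.18) for cromolyn with AOM and 1.41 (0.581 to 3.54) for cromolyn after AOM, and both intervals include 1. Without AOM-only library 3 the ratio was 2.52 for cromolyn with AOM and 4.72 for cromolyn after AOM. At this depth a change of Hdc under the drug could not be resolved.

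MC-38 tumours also gave very few Hdc counts. Sash hosts (replicates 1, 2, 4, 5 and 6) had 1, 2, 1, 5 and 1 counts (2.05, 3.32, 1.70, 5.54 and 1.62 CPM), and wild-type hosts (replicates 1, 3, 4 and 5) had 3, 2, 5 and 8 counts (4.86, 2.59, 5.28 and 11.9 CPM). The pooled ratio, sash over wild type, was 0.535 (0.221 to 1.22), with overlap between the groups. Cpa3 in the same libraries averaged 4.58 ± 1.47 CPM in sash hosts (n = 5) and 507 ± 219 CPM in wild-type hosts (n = 4).

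**Figure D1:**
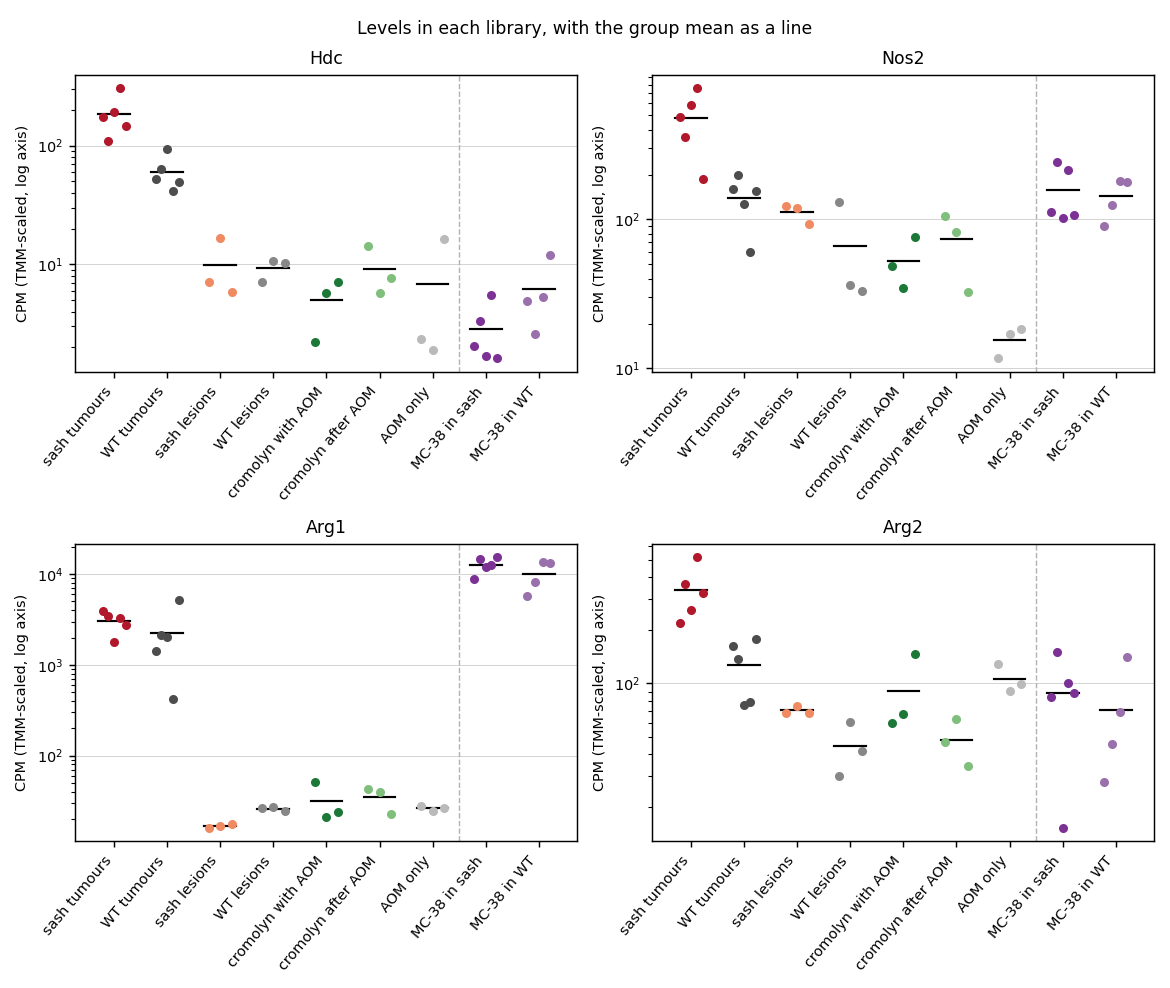
Level of each of the 4 enzyme genes in each library (CPM, log axis), by group, with the group mean as a line and a dashed line between the AOM and the MC-38 tables. Hdc lies between 41.4 and 306 CPM in the colon tumours and at or below 16.7 CPM in all other libraries, and Arg1 is the member with the widest range.

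Nos2 was highest in the sash tumours, lower in wild-type tumours, and lowest in colon given AOM only. Sash tumours 1 to 5 had 489, 358, 586, 761 and 186 CPM, and wild-type tumours 1 to 5 had 159, 197, 126, 60.0 and 156 CPM. Sash tumour 5 lay among the wild-type values, and the other 4 lay above all of them. The group levels were 476 ± 219 CPM in sash and 140 ± 51.3 CPM in wild type (SD, n = 5 each), a fitted log2 difference of 1.74 (SE 0.40).

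In the lesions Nos2 stood at 124, 119 and 93.1 CPM in sash and at 131, 36.4 and 32.96 CPM in wild type, libraries 1 to 3. Wild-type lesion 1 was as high as the sash lesions, and the other 2 were below all of them. The log2 difference, sash minus wild type, was 0.72 (SE 0.56, adjusted p = 0.578, edgeR). With the replicate number as a block it was 0.99 (SE 0.40, adjusted p = 0.143), and without wild-type lesion 1 it was 1.70 (adjusted p = 0.0635). None of the 3 members tested passed in the lesions, where 2.84% of 775 genes did. At an unadjusted p under 0.05 the members numbered 0, against 19.1% of genes, and 0 passed with DESeq2. With the block 84 genes passed, against 22 without it, and still no member did.

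Across stages in wild type, Nos2 differed by 1.05 (SE 0.51, adjusted p = 0.116, edgeR), tumours minus lesions, and 3 of 5 tumours lay above every lesion. This value did not pass, but it did without wild-type lesion 1 (2.01, adjusted p = 0.0174) and without wild-type tumour 4 (1.27, adjusted p = 0.0497). Within sash mice the tumours exceeded the lesions by 2.07 (SE 0.52), with 5 of 5 tumours above every lesion.

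Nos2 was the 1 member that passed in the cromolyn experiment. Cromolyn with AOM gave 48.4, 34.5 and 75.8 CPM, cromolyn after AOM 106, 81.9 and 32.4 CPM, and AOM only 11.7, 16.9 and 18.3 CPM. All 6 cromolyn libraries lay above all 3 AOM-only libraries, whose 5, 9 and 9 counts are few. Between a cromolyn group and AOM only the groups did not overlap for 24.5% of genes with cromolyn during AOM (13.8% higher) and for 29.3% with cromolyn after AOM (13.8% higher). Relative to AOM only, Nos2 rose with cromolyn after AOM, with a log2 difference of 2.18 (SE 0.48, adjusted p = 0.0338, edgeR), and 1 of 3 members passed where 4.82% of 768 genes did (2.34% as higher). Without a library the adjusted p was 0.120, 0.125 and 0.0753 for AOM-only libraries 1, 2 and 3, and 0.106 and 0.0701 for cromolyn-after libraries 1 and 2, with log2 differences of 2.05, 2.23, 2.29, 1.83 and 2.11. Only without cromolyn-after library 3 did the call hold (2.57, adjusted p = 0.0156).

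With cromolyn given during AOM the Nos2 difference was 1.70 (SE 0.50), with 3 of 3 libraries above AOM only. Its adjusted p was 0.115 with edgeR and 0.0485 with DESeq2 (log2 difference 1.73). None of the 3 members passed with edgeR, where 0.260% of all genes did. At an unadjusted p under 0.05 there was 1, Nos2, against 16.7% of genes, and with DESeq2 the same 1 passed. Both comparisons share the AOM-only libraries. The cromolyn groups themselves, during minus after AOM, differed by -0.48 (SE 0.42, adjusted p = 0.765, edgeR). In that contrast no member and no gene passed with edgeR (0%). At an unadjusted p under 0.05 there were 65 genes (8.46%), Arg2 among them, and 6 genes but no member passed with DESeq2.

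The AOM-only group and the wild-type lesions had the same labelled treatment, age and strain, and Nos2 differed between them as well. Wild-type lesions minus AOM only came to 2.00 (SE 0.61, adjusted p = 0.0529, edgeR), with 3 of 3 lesions above every AOM-only library, as for 21.1% of genes. The cromolyn groups, set against the same AOM-only libraries, gave 1.70 and 2.18. It was 1.07 without wild-type lesion 1, and 2.34 (adjusted p = 0.0151) without wild-type lesion 3. Between these sets 1 of 3 members passed by edgeR, where 15.6% of 762 genes did and 40.6% did not overlap. What separates the sets was not tested.

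MC-38 tumours showed Nos2 at 113, 244, 102, 216 and 107 CPM in sash hosts and 90.8, 126, 181 and 179 CPM in wild-type hosts. The groups overlapped widely, with a log2 difference of 0.11 (SE 0.31, adjusted p = 0.872, edgeR) and a 95% interval of -0.58 to 0.79. The difference between the tumour models was not tested. None of the 3 members tested passed here with edgeR, where 1.26% of 714 genes did, and none was free of overlap, where 8.68% were. At an unadjusted p under 0.05 the members numbered 0, against 21.8% of genes, and 0 passed with DESeq2.

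**Figure D2:**
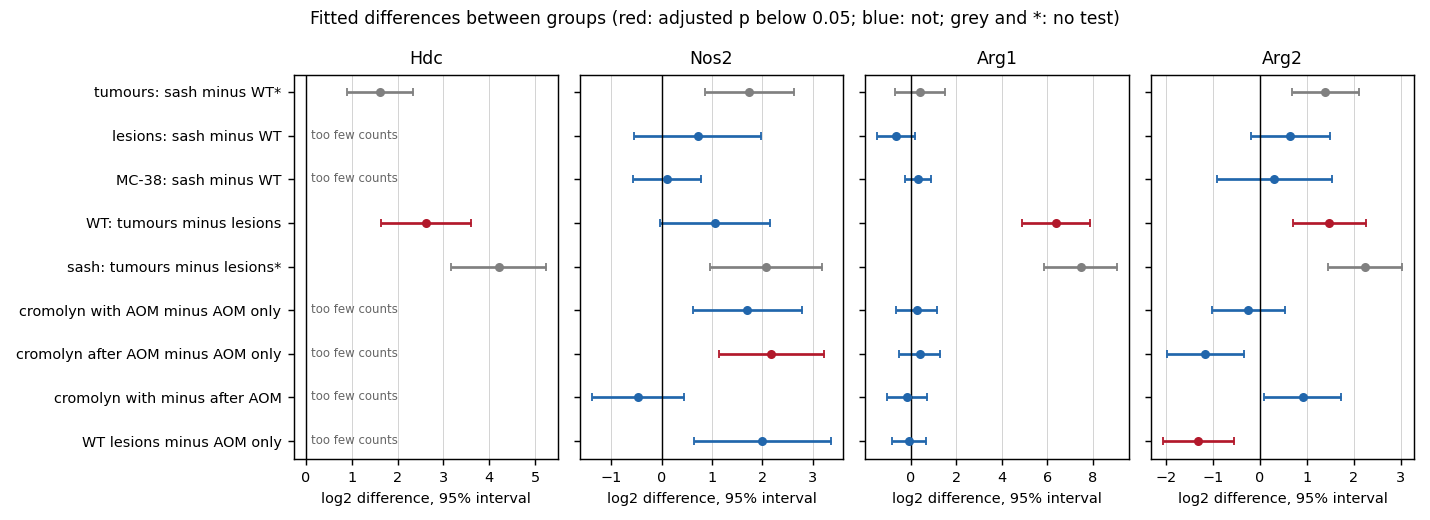
Fitted log2 differences of the members in each comparison (first group minus second), with bars of the 95% interval at the degrees of freedom of the fit. Red points passed the adjusted p threshold, blue points did not, and grey points with starred names have no test. Arg1 differs most between tumours and lesions, Nos2 lies above 0 in both comparisons of cromolyn with AOM only, and in the MC-38 tumours the bars of Nos2, Arg1 and Arg2 cross 0.

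Arg1 separated tumours from lesions more widely than any other member and did not separate the genotypes. Sash tumours 1 to 5 had 3928, 3453, 1805, 3329 and 2722 CPM, and wild-type tumours 1 to 5 had 1432, 2158, 2029, 424 and 5139 CPM. The highest and the lowest values were both wild type, so the groups overlapped. Means were 3048 ± 817 CPM in sash and 2236 ± 1761 CPM in wild type (SD, n = 5 each). The log2 difference was 0.42 (SE 0.50), and 0.97 without wild-type tumour 5.

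Lesions held Arg1 at 16.1, 16.7 and 17.7 CPM in sash (9 to 15 counts) and at 26.5, 27.3 and 24.5 CPM in wild type (15 to 26 counts). All 3 sash lesions lay below all 3 wild-type lesions, in a comparison in which 24.3% of genes did not overlap and 14.2% were lower in sash. The log2 difference was -0.64 (SE 0.37, adjusted p = 0.427, edgeR). Between tumours and lesions in wild type Arg1 rose by 6.39 (SE 0.71, adjusted p = 1.83e-05, edgeR), with 5 of 5 tumours above every lesion. In sash mice the same difference was 7.47 (SE 0.75), with 5 of 5 tumours above.

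Arg1 was low in the cromolyn experiment and passed in neither comparison with AOM only. The libraries with cromolyn during AOM had 50.6, 21.1 and 23.7 CPM, those with cromolyn after AOM had 42.8, 40.0 and 22.8 CPM, and AOM only had 28.0, 24.5 and 26.4 CPM. All groups overlapped, at 10 to 23 counts a library. Relative to AOM only the log2 difference was 0.26 with cromolyn during AOM (SE 0.42, adjusted p = 0.760) and 0.40 with cromolyn after AOM (SE 0.41, adjusted p = 0.610, both edgeR). Wild-type lesions minus AOM only gave -0.059 (SE 0.34, adjusted p = 0.922, edgeR), with a 95% interval of -0.81 to 0.69.

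In MC-38 tumours Arg1 was abundant in both hosts. Its counts ran from 4264 to 11374 in sash hosts and from 3570 to 12817 in wild-type hosts. The levels were 8752, 14868, 11913, 12602 and 15318 CPM in sash hosts and 5789, 8107, 13530 and 13220 CPM in wild-type hosts, with means of 12691 ± 2635 CPM in sash hosts (SD, n = 5) and 10162 ± 3832 CPM in wild-type hosts (SD, n = 4). The log2 difference was 0.31 (SE 0.26, adjusted p = 0.498, edgeR; 95% interval -0.25 to 0.87).

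Arg2, the mitochondrial arginase, did not overlap between the genotypes in the colon tumours, as for 5.40% of genes (3.89% higher in sash). It was picked with its high sash values known. Nothing is therefore read from this, or from its contrast with Arg1, which did overlap. Sash tumours 1 to 5 had 220, 368, 262, 517 and 323 CPM, and wild-type tumours 1 to 5 had 163, 137, 75.6, 78.6 and 178 CPM. Every sash tumour exceeded every wild-type tumour, with means of 338 ± 115 CPM in sash and 127 ± 47.6 CPM in wild type (SD, n = 5 each) and a log2 difference of 1.40 (SE 0.32).

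Lesions had Arg2 at 68.0, 75.0 and 68.4 CPM in sash and at 30.1, 60.6 and 41.4 CPM in wild type. All 3 sash values were above all 3 wild-type values, as for 10.1% of genes in that comparison. The log2 difference of 0.65 (SE 0.37, adjusted p = 0.423, edgeR) did not pass, nor did it with the replicate block (0.69, adjusted p = 0.260). Between stages in wild type Arg2 rose by 1.48 (SE 0.37, adjusted p = 0.00696, edgeR), with 5 of 5 tumours above every lesion. That call was lost when libraries were scaled to the reference genes Rpl13a and Tfrc (1.45, adjusted p = 0.0725). In sash mice the difference between tumours and lesions was 2.25 (SE 0.37).

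Colon given AOM only had more Arg2 than the wild-type lesions of the same labelled treatment. Cromolyn during AOM gave 59.4, 67.0 and 147 CPM, cromolyn after AOM 46.8, 62.9 and 34.3 CPM, and AOM only 129, 90.3 and 99.4 CPM. The values after AOM were all below the controls, as for 15.5% of genes, and the log2 difference was -1.16 (SE 0.38, adjusted p = 0.105, edgeR). With cromolyn during AOM it was -0.24 (SE 0.36, adjusted p = 0.731), with 1 library above every control. During minus after, the difference was 0.91 (SE 0.38, adjusted p = 0.458, edgeR).

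Wild-type lesions minus AOM only was -1.31 for Arg2 (SE 0.34, adjusted p = 0.0323, edgeR), with 3 of 3 lesions below every AOM-only library, as for 19.4% of genes there. The call was lost without AOM-only library 1 (-1.14, adjusted p = 0.166), 2 (-1.41, adjusted p = 0.102) or 3 (-1.36, adjusted p = 0.0894), and without wild-type lesion 1 (-1.12, adjusted p = 0.0634). Nos2 and Arg2 thus stood in opposite order between the 2 sets, Nos2 higher and Arg2 lower in the wild-type lesions than in AOM only.

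Arg2 in MC-38 tumours stood at 84.2, 151, 15.3, 101 and 88.8 CPM in sash hosts and 27.6, 45.3, 68.6 and 142 CPM in wild-type hosts. Sash replicate 4, with 9 counts, was the lowest of all 9, and the groups overlapped. The log2 difference was 0.31 (SE 0.56, adjusted p = 0.766, edgeR), with a 95% interval of -0.92 to 1.54.

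The log2 ratio of Nos2 to Arg1 counts within a library does not depend on how libraries are scaled, and can be set between libraries though its sign has no meaning for the 2 amplicons. It averaged -2.78 ± 0.90 in sash tumours and -3.69 ± 0.87 in wild-type tumours (SD, n = 5 each), against 2.67 ± 0.28 in sash lesions and 1.03 ± 1.07 in wild-type lesions (n = 3 each). Every tumour, at -1.62 or lower, lay below every lesion of the same set, the lowest of which was 0.41. The ratio was 0.75 ± 0.85 with cromolyn during AOM, 0.93 ± 0.41 with cromolyn after AOM and -0.73 ± 0.39 with AOM only (n = 3 each), so all 6 cromolyn libraries, at -0.063 or higher, lay above the 3 controls. Wild-type lesions, at 0.41 to 2.26, also lay above those controls, which had the same labelled treatment.

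In MC-38 tumours the ratio was -6.41 ± 0.57 in sash hosts (n = 5) and -6.10 ± 0.13 in wild-type hosts (n = 4). The difference of -0.31 did not exceed the spread between samples (two-sided exact permutation test over 126 splits, p = 0.397, smallest possible p 0.00794). Sash hosts spanned -7.16 to -5.86 and enclosed every wild-type value.

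**Figure D3:**
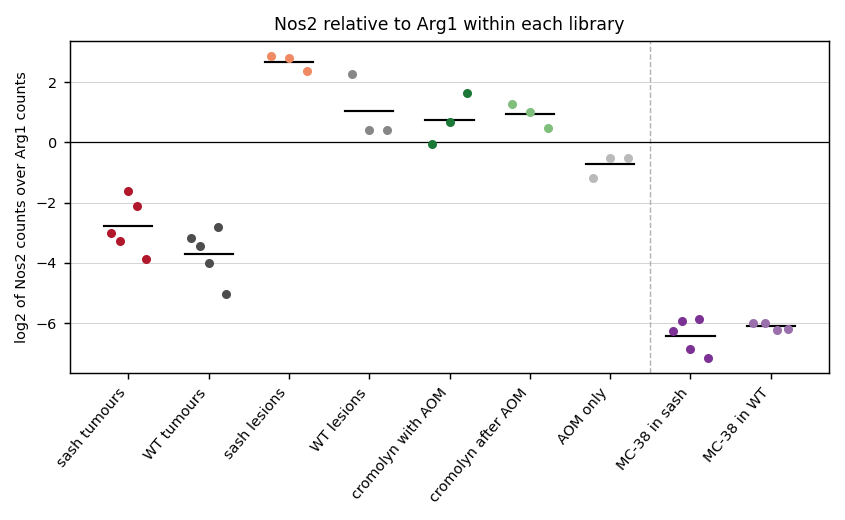
Log2 ratio of Nos2 to Arg1 counts in each library by group, with the group mean as a line and a dashed line between the AOM and the MC-38 tables. Colon tumours lie between -5.04 and -1.62, lesions of both genotypes between 0.41 and 2.87, AOM only between -1.18 and -0.51, and MC-38 tumours between -7.16 and -5.86.

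Few other genes of the 2 pathways were on the panel. Of 12 names for histamine handling 3 were measured: Maob, which degrades the methylated product of histamine, Slc18a2, the vesicular transporter that loads histamine into granules, and Hrh4, a histamine receptor on leukocytes. Of 30 names for arginine, nitric oxide and polyamine handling 3 were measured: Ass1, which rebuilds arginine from citrulline, Gch1, whose product is needed for the cofactor of nitric oxide synthases, and Nos3, the endothelial synthase. Between wild-type tumours and lesions 2 of the 5 that could be tested passed, both lower in tumours, where 17.6% of the 848 genes passed as lower. Maob fell to 79.8 ± 77.8 CPM in tumours, against 298 ± 138 CPM in lesions (n = 5 and 3; log2 difference -1.96, SE 0.60, adjusted p = 0.0204, edgeR). Slc18a2 fell to 7.38 ± 4.67 CPM in tumours, against 20.5 ± 0.907 CPM in lesions (log2 difference -1.53, SE 0.46, adjusted p = 0.0184).

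Hdc was higher in tumours between the same wild-type groups in which Maob and Slc18a2 fell, but it entered that fit through the tumours. Over the wild-type tumours Maob ran from 8.27 to 207 CPM, and Slc18a2 had 4 to 11 counts in each. No pattern of the pathway is read from these genes. Ass1, Nos3 and Gch1 differed there by 0.026 (SE 0.27), 0.80 (SE 0.42) and 0.30 (SE 0.24), and none passed. In the other comparisons with a test no gene of either list passed. Sash minus wild-type tumours gave -2.05 (SE 0.66) for Maob, 0.46 (SE 0.23) for Ass1, -0.27 (SE 0.28) for Nos3 and -0.011 (SE 0.18) for Gch1. Slc18a2 was too low to be tested in that contrast, with 43 counts over the sash and 32 over the wild-type tumours, and Hrh4 had at most 1 count in any library.

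Signals known to induce Nos2 or Arg1 moved in both directions between stages. Of 12 type 1 inducers on the panel 11 were tested between wild-type tumours and lesions, where 6 rose and 1 fell, against 19.5% of all genes that rose and 17.6% that fell. Il1b, which encodes interleukin 1 beta, rose by 3.29 (SE 0.71, adjusted p = 0.00276, edgeR) and Il1a by 3.43 (SE 0.73, adjusted p = 0.00276), while Irf1, an interferon-induced transcription factor needed for Nos2 induction in macrophages, fell by 1.13 (SE 0.18, adjusted p = 0.000405). The other 4 that rose were Cd14, Ifngr2, Nfkb1 and Rela, by 0.70 to 0.85. The median over the 11 was 0.79, against -0.0012 over all 848 genes. Il1a was too low to be tested in the lesions alone (15 counts in sash, 19 in wild type) and entered this fit through the tumours. Nothing is therefore read from its place in the count or in the median.

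Among type 2 inducers of Arg1, 3 of 5 tested rose between those stages, where 19.5% of all genes did: Il33 by 2.74 (SE 0.48, adjusted p = 0.000645, edgeR), Stat3 by 0.58 (SE 0.15, adjusted p = 0.00836) and Csf2 by 2.17 (SE 0.82, adjusted p = 0.0495). Csf2 was too low to be tested in the lesions alone (6 counts in sash, 6 in wild type) and entered this fit through the tumours. Nothing is therefore read from its place in the count. Il13, Il4 and Il10 were too low to be tested between those stages, and none of them was higher in wild-type tumours. Il13 had 0 counts over the wild-type tumours and 20 over the wild-type lesions. Il4 had 8 and 13, and Il10 had 8 and 16. With cromolyn after AOM, Il13, a type 2 cytokine, rose by 3.49 relative to AOM only (SE 0.88, adjusted p = 0.0428, edgeR). It averaged 26.0 CPM against 1.93 CPM, while Arg1 did not pass. In the MC-38 tumours, the sash and wild-type lesions and the comparison of cromolyn during AOM with AOM only, no gene of either inducer list passed.

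Genes with the most similar pattern were ranked by the root mean square difference of log2 CPM, each gene centred on its own mean, among 819 genes over the 25 AOM libraries. Nearest to Hdc were Tnfsf9, a ligand of the TNF family (0.70), Csf3r, the receptor for granulocyte colony-stimulating factor (0.74), and Dusp4, a phosphatase of MAP kinases (0.76), with a median of 1.88 over all genes. Nearest to Nos2 were Tnf (0.79), Rgs16, a regulator of G protein signalling (0.81), and Socs3, a feedback inhibitor of cytokine receptors (0.86), with a median of 1.55.

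For Arg1 the nearest were Mmp12, the macrophage elastase (0.88), Cxcr2, the receptor that draws neutrophils (0.93), and Cxcl3, one of its ligands (0.94), with a median of 3.17. For Arg2 they were Cd80, a costimulator of T cells (0.57), Tgif1, a transcriptional repressor (0.57), and G0s2, an inhibitor of lipolysis (0.58), with a median of 1.15. Among the members themselves Hdc and Nos2 were the closest pair (1.05) and Arg1 and Arg2 the most distant (2.46). The distance depends on the size of a change as well as its direction. Around its own mean Arg1 had a root mean square of 3.16 and Arg2 of 1.04, and both were higher in tumours than in lesions. All these distances run over the same 25 libraries, which share the step between tumours and lesions.

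Over the 9 MC-38 libraries, all of them tumours, the neighbours were other genes. Nearest to Nos2 were Pla2g7 (0.12), Acp5 (0.19) and Ms4a4a (0.20), genes known from macrophages, against a median of 0.58 over 733 genes. Nearest to Arg1 were Ksr1, a scaffold of MAP kinase signalling (0.23), Ifng (0.26) and Cd274 (0.26), against a median of 0.55. Nearest to Arg2 were Cd248 (0.31), Tnfrsf25 (0.32) and Pdgfrb (0.38), of which Cd248 and Pdgfrb are known from stromal cells, against a median of 1.03. Hdc was under the minimum mean of 10 CPM in that table and was not ranked.

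Marker genes of the cells that can carry these enzymes differed between the same groups. Neutrophil markers (7 genes) summed to 774 to 1169 CPM in sash tumours and 122 to 529 CPM in wild-type tumours, against 37.6 to 106 CPM in sash lesions and 48.5 to 67.2 CPM in wild-type lesions. The sums did not overlap between the sash and wild-type tumours. Of single genes 5.40% did not overlap there (3.89% higher in sash). The members were picked from that contrast, so nothing is read from it for Hdc. Of the 5 neutrophil markers that could be tested between wild-type tumours and lesions all 5 rose, where 19.5% of all genes did. Csf3r rose by 3.82 (SE 0.54, adjusted p = 0.000111, edgeR). In the lesions alone only 1 of the 7 passed the filter on low counts, Itgam. The others tested entered through the tumours, where they were high, so nothing is read from this count. In the MC-38 tumours, where Hdc had few counts, the neutrophil markers summed to 808 to 1497 CPM in sash and 831 to 1888 CPM in wild-type hosts. Most of that sum was Fpr2, a formyl peptide receptor (844 ± 257 CPM in sash and 959 ± 365 CPM in wild-type hosts), and Itgam, an integrin that is also on the macrophage list (280 ± 28.0 CPM in sash and 288 ± 72.1 CPM in wild-type hosts). Cxcr2, by contrast, had 9 counts in the sash and 4 in the wild-type hosts, although it stood at 266 ± 95.4 CPM in sash and 83.7 ± 31.8 CPM in wild-type colon tumours. The neutrophil granule gene Mpo was at 0 in both MC-38 groups and in all lesion groups. It had only 1 count over the sash and 1 over the wild-type colon tumours, so it does not set these groups apart. The part of neutrophils in the Hdc levels was not tested.

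Mast cell markers other than Hdc (9 genes) were lower in sash as a sum, though not gene by gene. Their sums were 171 to 374 CPM in sash and 418 to 783 CPM in wild-type tumours, 342 to 440 CPM in sash and 592 to 824 CPM in wild-type lesions, and 571 to 1053 CPM in sash and 1349 to 1993 CPM in wild-type MC-38 tumours. In sash lesions Cpa3, Tpsab1 and Ms4a2 were at 0. Of 5 tested in the lesions 1 fell in sash, Kit, the stem cell factor receptor (-1.78, SE 0.26, adjusted p = 0.0144, edgeR), where 2.32% of all genes fell. Kit, the gene the sash mutation affects, stood at 127 ± 14.5 CPM in sash and 432 ± 89.2 CPM in wild-type lesions and made up most of the gap in the sum. Hpgds, a prostaglandin D synthase, stood at 199 ± 56.1 CPM in sash and 177 ± 51.7 CPM in wild-type lesions, and Gata2, a transcription factor of the lineage, at 32.9 ± 10.8 CPM in sash and 34.6 ± 14.9 CPM in wild-type lesions. Of 5 tested in the MC-38 tumours 3 fell in sash hosts, where 0.560% of all genes did: Cpa3 (-6.72, SE 0.38, adjusted p = 8.12e-07), Tpsb2 and Tpsab1. Kit was not among those tested there, at 12.9 ± 8.24 CPM in sash and 10.2 ± 5.42 CPM in wild-type hosts. Hdc, picked with this contrast known, was higher in the sash tumours. The mast cell sums of the sash tumours lay below those of every wild-type tumour and overlapped with the sash lesions. Kit was part of that gap too, at 75.0 ± 18.2 CPM in sash and 233 ± 165 CPM in wild-type tumours. The part of mast cells in the Hdc levels was not tested. With cromolyn during AOM the sums were 646 to 915 CPM, with cromolyn after AOM 777 to 1024 CPM, and with AOM only 709 to 757 CPM.

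Macrophage and monocyte markers (9 genes, Marco at 0 in every library) overlapped between the genotypes as a sum. They summed to 1455 to 1912 CPM in sash and 634 to 2947 CPM in wild-type tumours. Wild-type tumour 4 was the lowest both in this sum and in Arg1, but the other extremes did not match. Wild-type tumour 1, highest in the sum (2947 CPM), had Arg1 at 1432 CPM. Wild-type tumour 5, highest in Arg1 (5139 CPM), had a sum of 1577 CPM. Between wild-type tumours and lesions 2 of 8 rose and 1 fell, where 19.5% of all genes rose and 17.6% fell: Msr1 rose by 1.62 (SE 0.46, adjusted p = 0.0143, edgeR), as did Itgam, and Cd163 fell by 2.36 (SE 0.85, adjusted p = 0.0403). In the MC-38 tumours, with their abundant Arg1, the sums were 3485 to 4563 CPM in sash and 3423 to 4368 CPM in wild-type hosts. Of the genes of this list 2 did not overlap there, as for 8.68% of all genes, and did not pass: Cd163, a scavenger receptor, at 11.9 to 118 CPM in sash and 1.62 to 7.77 CPM in wild-type hosts (log2 difference 3.13, SE 0.71, adjusted p = 0.0508, edgeR), and Csf1r, the receptor for macrophage colony-stimulating factor, at 792 to 1363 CPM in sash and 455 to 788 CPM in wild-type hosts (0.67, SE 0.21, adjusted p = 0.127). Only 3 of the 8 tested had a log2 difference above 0. Lower in sash hosts, with 4 of 5 libraries below every wild-type library, were Msr1 (-0.49, SE 0.16, adjusted p = 0.128, edgeR) and Fcgr1 (-0.45, SE 0.16, adjusted p = 0.147). In the cromolyn experiment, where Nos2 differed, the macrophage and monocyte sums were 777 to 1292 CPM with cromolyn during AOM, 641 to 1196 CPM with cromolyn after AOM and 1049 to 1346 CPM with AOM only. Neutrophil markers there were 76.6 to 135 CPM with cromolyn during AOM, 59.1 to 109 CPM with cromolyn after AOM and 114 to 140 CPM with AOM only. Neither sum was higher in all libraries of a drug group than in AOM only. With cromolyn after AOM every neutrophil sum lay below the controls, in a comparison in which 15.5% of single genes did so. The summed epithelial markers (2 genes) were 21575 to 49851 CPM with cromolyn during AOM and 20265 to 37243 CPM with cromolyn after AOM, against 46870 to 61813 CPM with AOM only, with overlap in the first case and none in the second. With cromolyn after AOM both genes lay below every control, as did 15.5% of the 768 genes tested. Epcam stood at 12110 to 15018 CPM, against 16021 to 17397 CPM with AOM only (log2 difference -0.30, SE 0.19, adjusted p = 0.391, edgeR). Car4 stood at 8155 to 22610 CPM, against 30849 to 44416 CPM (-1.25, SE 0.45, adjusted p = 0.153, edgeR). Neither passed, and the part of the epithelium in the Nos2 levels was not tested.

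The list of basophil and eosinophil markers had 4 genes on the panel: Siglecf, Prg2, Ccr3 and Il5ra. Its basophil names Mcpt8, Prss34 and Cd200r3 were not on the panel, so these sums cannot speak for basophils. The 4 genes summed to 42.7 to 114 CPM in sash and 30.4 to 111 CPM in wild-type tumours. In lesions they summed to 40.1 to 53.7 CPM in sash and 79.1 to 170 CPM in wild type, where the groups did not overlap. In MC-38 tumours the sums were 32.3 to 461 CPM in sash and 11.4 to 50.8 CPM in wild-type hosts. The part of basophils and eosinophils in the Hdc levels was not tested. Between wild-type tumours and lesions 3 of these 4 fell, where 17.6% of all genes did, Siglecf by 2.51 (SE 0.53, adjusted p = 0.00266, edgeR), Prg2 by 1.96 (SE 0.58, adjusted p = 0.0179) and Ccr3 by 1.83 (SE 0.64, adjusted p = 0.0353). Of the 2 epithelial markers, Car4, a carbonic anhydrase of the mature colon surface, fell there by 2.69 (SE 0.95, adjusted p = 0.0370), and Epcam did not pass (0.20, SE 0.16, adjusted p = 0.330). Wild-type lesions were lower than AOM only in 1 gene each of the neutrophil, macrophage and mast cell lists: Fpr2 (-2.02, SE 0.45), Adgre1 (-1.16, SE 0.29) and Gata2 (-1.35, SE 0.39), with adjusted p of 0.0205, 0.0284 and 0.0444 (edgeR), where 6.96% of all genes were lower. Neither of the reference genes Rpl13a and Tfrc passed in any comparison with a test.

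**Figure D4:**
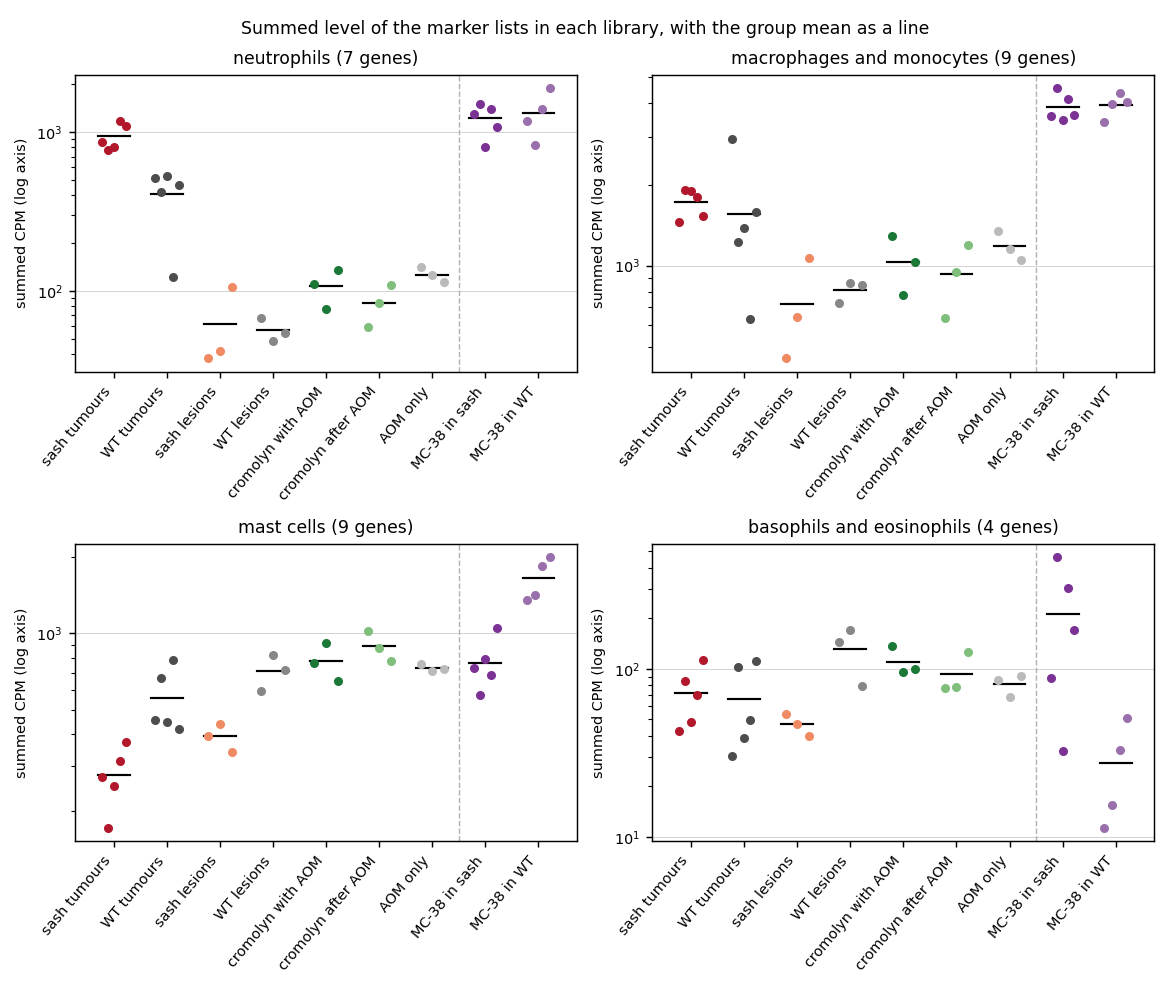
Summed CPM (log axis) of 4 marker lists in each library by group, with the group mean as a line. Neutrophil sums of the sash tumours (774 to 1169 CPM) lie above those of the wild-type tumours (122 to 529 CPM), mast cell sums lie below, and macrophage sums overlap.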

How the data were processed

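RNA was read with the QIAseq Targeted RNA panel for mouse immuno-oncology on a MiSeq, per the labels' protocols. The authors deposited raw counts per gene as whole numbers, with 25 AOM libraries in 1 table and 9 MC-38 libraries in another. Each has 988 genes and 5 control entries at 0, which were left out. The submitters' processing notes name the build mm9 and DESeq2, without a version. Neither the aligner nor the counted unit (molecular tag or read) is stated in the sources used here. Of 36 labelled samples 34 were analysed. MC-38 wild-type replicate 2 and sash replicate 3 were not analysed here.

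Counts were tested with edgeR 4.0.16 (R 4.3.3): TMM scaling, filterByExpr (minimum count 10, minimum total 15), robust quasi-likelihood F test, Benjamini-Hochberg adjustment over all genes tested in the comparison, threshold 0.05. Each experiment's genotypes had a fit of their own, the 3 cromolyn groups shared 1 fit, and stage was fitted on the 4 tumour and lesion groups at once. SE is the log2 difference over the square root of F, and 95% intervals use the total degrees of freedom of that test. The fit was checked on simulated counts. Alternatives were DESeq2 1.42.0, RLE factors, library totals, reference gene scaling (Rpl13a and Tfrc, of 13 names), no low-count filter, a replicate block, all 25 AOM libraries in 1 fit, the wild-type tumours and lesions alone in the fit of stage (added after seeing the data), each library left out, and a pseudocount of 1 in place of 0.5 in the Nos2 to Arg1 ratio.

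No replicate pair agreed within counting noise (chi-square per degree of freedom 5.85 to 194 over 51 pairs), so each library counts once. Same-numbered lesions of the 2 genotypes deviated together (correlations 0.163 to 0.521 over 3 pairs). The main fit of the lesions ignored this possible pairing, and the replicate number entered only as a block in an alternative fit. The labels name no litter or day, and no other comparison had every pair over 0.1.

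The 4 members and all lists were chosen with earlier results of these data known. The lists covered histamine handling, arginine, nitric oxide and polyamine handling, type 1 inducers of Nos2, type 2 inducers of Arg1, neutrophils, macrophages and monocytes, mast cells, basophils and eosinophils, epithelium and reference genes. Named were the members, the pathway genes, and for each member the 3 genes of most similar pattern (mean of at least 10 CPM, prior count 2). Inducer genes that passed and single markers were named after their values were seen, and 1 inducer result is not reported here. Promoter sequence came from RefSeq (GRCm38.p6), and no coordinates of the deposited files were used.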

Additional observations from a re-analysis of the deposited data

How the results depend on the processing

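The members gave 30 log2 differences and 432 values under the alternatives, of which 400 kept their direction and their side of the threshold. Reversed in sign, without passing in either direction, were Nos2 in MC-38 tumours (replicate block -0.11; one library left out -0.084 to 0.24, below 0 without sash replicate 2 or 5 or wild-type replicate 1), Arg2 in MC-38 tumours (replicate block -0.33), Arg1 with cromolyn during AOM minus AOM only (-0.24 to 0.49, below 0 without library 1 of cromolyn during AOM) and Arg1 during minus after AOM (-0.64 to 0.092). Nos2 with cromolyn after AOM did not pass with the block (2.15, adjusted p = 0.0627) or with all 25 libraries in 1 fit (2.20, adjusted p = 0.309), and was 1.83 to 2.57 with a library left out. With cromolyn during AOM it passed with DESeq2 (1.73). Nos2 between wild-type lesions and AOM only passed with DESeq2 (2.07), library totals (1.98), no low-count filter (1.99) and all 25 libraries (2.00), and was 1.07 to 2.34 with a library left out. Arg2 there missed with the block (-1.32) and was -1.58 to -1.12 with a library left out. Between wild-type tumours and lesions Arg2 missed with reference gene scaling (1.45), and Nos2 was 0.73 to 2.01 with a library left out. Without 1 library, Arg1 in sash minus wild-type tumours was 0.15 to 0.97, and Hdc in sash tumours minus lesions 3.91 to 4.80. The pooled Hdc ratio to AOM only was 0.532 to 2.52 for cromolyn during AOM, 0.998 to 4.72 for cromolyn after AOM and 0.956 to 4.52 for wild-type lesions. The replicate block changed no other call of a member.

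Counts of genes that passed moved more than the members did. In MC-38 tumours 9 passed (DESeq2 48, reference gene scaling 3, block 3, a library left out 3 to 17), and in sash minus wild-type lesions 22 (DESeq2 72, no filter 36, block 84, a library left out 0 to 68). With cromolyn during AOM 2 passed (DESeq2 42, library totals 18, reference gene scaling 1, block 7, all 25 libraries 0, a library left out 0 to 15), and after AOM 37 (DESeq2 56, reference gene scaling 6, block 21, all 25 libraries 0, a library left out 1 to 8). During minus after AOM 0 passed (65 at an unadjusted p under 0.05; DESeq2 6, library totals 3, reference gene scaling 4, a library left out 0 to 1). Between wild-type tumours and lesions 314 passed (reference gene scaling 132, wild-type libraries alone in the fit 154, a library left out 183 to 367), and between wild-type lesions and AOM only 119 (a library left out 11 to 268). The cause of these shifts was not tested. Reference gene scaling moved the median of all genes to -0.29 and 0.13 for cromolyn during and after AOM minus AOM only, -0.38 during minus after, and -0.43 for wild-type lesions minus AOM only. Library totals moved it to 0.22 and 0.21 for tumours minus lesions in wild type and sash. Depth limits Hdc most, with 1 to 12 counts in each lesion and MC-38 library.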
